A study of Mus musculus with 12 samples.

Results

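The gel-forming mucin cluster is a stretch of mouse chromosome 7 that carries the genes Muc6, Muc2, Muc5ac and Muc5b. Its members here were all open chromatin peaks that overlapped the 260 kb window chr7:148800000-149060000 (mm9) by at least 1 bp in any of 4 consensus peak lists. There were 25 such peaks among 210325 in all. They came from intestinal epithelial cells of C57Bl/6 mice carrying a Sox9-EGFP reporter, in which green fluorescence follows the level of Sox9, a crypt transcription factor. The cells had been sorted into Sox9 Negative, Sox9 Sublow, Sox9 Low and Sox9 High populations, and 12000 cells were collected per population. Each population had 3 libraries made by Omni-ATAC, in which a transposase cuts and tags accessible DNA. The labels give no treatment, age or sex and leave unsaid whether the 3 libraries are from different animals. All 4 populations share the reporter, so none of them is an animal without it. In earlier work on this reporter mouse, Low cells were described as rich in crypt base stem cells, Sublow cells in dividing progenitors, High cells in enteroendocrine and other secretory cells, and Negative cells as mostly differentiated.

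Gel-forming mucins are very large secreted glycoproteins. They join into polymers through cysteine-rich ends, and their long middle parts carry dense O-linked sugars that bind water, so that the released polymer swells into mucus. Muc2 is the main mucin of intestinal goblet cells and builds the mucus layer of the small intestine and colon. Muc5ac is best known from the surface mucous cells of the stomach and from the airway, Muc6 from gastric glands and the duodenal glands, and Muc5b from the airway and salivary glands. In the RefSeq gene table (GRCm38.p6) the genes stand on chromosome 7 in the order Muc6, Muc2, Muc5ac, Muc5b, and no other gene of that table starts between them.

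The lists give peak positions on mm9, and no mm9 annotation was used. The place of each peak within a gene, promoter or intron was therefore not analysed, and the cluster's name rests on the window alone. The DNA before the starts of Muc6 and Muc2 is printed here so that the sequence in front of a mucin gene can be seen. It comes from RefSeq on another build (GRCm38.p6) and was not set against any peak. Each line holds the 250 bases before the gene's start, 5′ to 3′ on the gene's strand. Capitals mark the letters TATAA, the core of a TATA box, and GATAA, the core of sites for GATA transcription factors, and both were searched on both strands.
Muc6, chr7:141655394-141655643, minus strand, GRCm38.p6: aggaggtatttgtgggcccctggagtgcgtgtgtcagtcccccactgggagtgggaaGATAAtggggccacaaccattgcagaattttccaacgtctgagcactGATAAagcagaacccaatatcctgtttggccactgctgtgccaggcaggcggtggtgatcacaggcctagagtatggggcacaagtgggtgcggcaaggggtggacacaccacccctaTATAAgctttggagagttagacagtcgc
Muc2, chr7:141690090-141690339, plus strand, GRCm38.p6: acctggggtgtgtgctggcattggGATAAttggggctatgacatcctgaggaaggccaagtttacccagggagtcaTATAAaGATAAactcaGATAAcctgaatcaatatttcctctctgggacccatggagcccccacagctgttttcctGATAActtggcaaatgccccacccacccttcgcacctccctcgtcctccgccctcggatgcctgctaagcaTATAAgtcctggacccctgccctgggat
Each of these 2 promoters held TATAA at bases -28 to -24, counted back from the gene's start. The Muc2 stretch held a second TATAA at -174 to -170. GATAA occurred 4 times in Muc2 and 2 times in Muc6, all on the gene's own strand, and no match overlapped another. Over 32851 promoter entries of the same length, 22.8% held TATAA and 22.6% held GATAA on either strand. These shares count entries with a match anywhere, and give no background for its place or for repeated matches. A match of letters is a description and not a binding site. Muc5ac and Muc5b had no entry among these promoters.

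The lists ranked differently by peaks in the cluster than by length, though the peaks here are few and the difference was not tested. Of the 25 peaks, 4 were Negative peaks, 10 were Sublow peaks, 4 were Low peaks and 7 were High peaks. The whole lists held 45461 Negative peaks, 52113 Sublow peaks, 58356 Low peaks and 54395 High peaks, so the longest list was among those with the fewest peaks here. Per 1000 peaks of the list, the cluster took 0.088 Negative peaks, 0.192 Sublow peaks, 0.0685 Low peaks and 0.129 High peaks. Per 100 kb there were 1.54 Negative peaks, 3.85 Sublow peaks, 1.54 Low peaks and 2.69 High peaks, where the whole of chromosome 7 had 1.94, 2.22, 2.44 and 2.24 in the same order of lists. The density here was 0.794 times that along chromosome 7 for Negative, 1.73 times for Sublow, 0.631 times for Low and 1.2 times for High. The lists hold no read counts and no value per library, so sequencing depth is unknown. None of these values has a replicate error, and none could be tested over replicates. DNA with no listed peak was not shown to be closed. In a sorted population, open chromatin in a few cells and slight opening in many cannot be told apart.

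**Figure D1:**
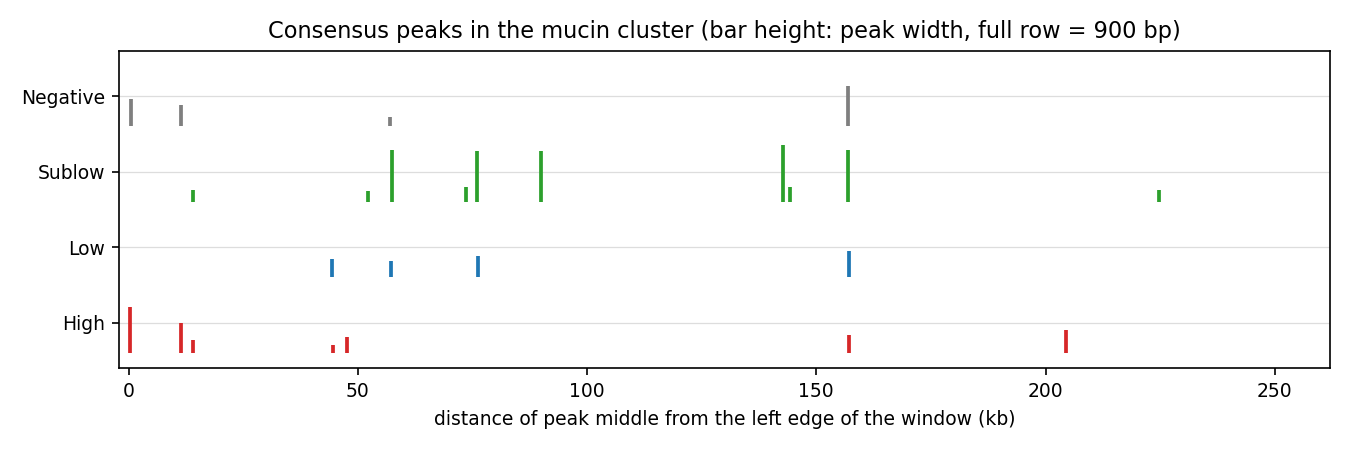
Each bar is a consensus peak, placed by its middle along the 260 kb window (x axis, kb from the left edge), with 1 row per population and a bar height that gives the peak's width. Sublow has the most peaks (10) and the tallest bars, and the last 100 kb hold 2 peaks, 1 of Sublow and 1 of High.

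The bases covered differed more than the number of peaks. Negative peaks covered 1458 bp of the window (0.561%), Sublow peaks 4838 bp (1.86%), Low peaks 1207 bp (0.464%) and High peaks 2262 bp (0.87%). Per Mb covered by the whole list, this came to 67.7 bp for Negative, 169 bp for Sublow, 40.0 bp for Low and 87.2 bp for High. Sublow and Low, the lists that were most alike over the genome, stood at the top and the bottom here.

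Of the 10 Sublow peaks in the cluster, 5 were at least 750 bp wide and 5 were at most 225 bp wide. The Negative peaks measured 133, 322, 409 and 594 bp. The wide Sublow peaks measured 750, 753, 769, 776 and 849 bp, and the narrow ones 156, 171, 171, 218 and 225 bp, with none in between. The Low peaks measured 238, 265, 313 and 391 bp, and the High peaks 114, 197, 230, 258, 344, 442 and 677 bp. Widths of at least 500 bp were thus reached by 1 of 4 Negative, 5 of 10 Sublow, 0 of 4 Low and 1 of 7 High peaks, beside 37.2%, 45.9%, 41.9% and 36.1% of the whole lists. The Sublow share was near that of its whole list, and most peaks of each whole list were also under 500 bp. Median widths in the cluster were 365.5 bp (Negative), 487.5 bp (Sublow), 289 bp (Low) and 258 bp (High), against medians over the whole lists of 394, 464, 433 and 383 bp.

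**Figure D2:**
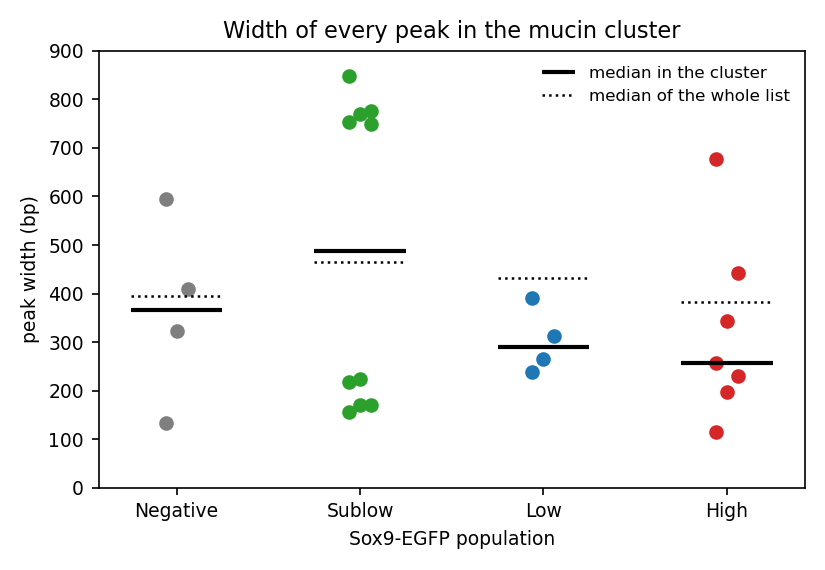
Points are the widths (y axis, bp) of every peak of the cluster in each population, solid lines are medians in the cluster and dotted lines are medians of the whole lists. The 5 wide Sublow peaks lie at 750 bp and above, and all 4 Low peaks lie below the Low list's median of 433 bp.

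Peaks that overlapped or touched were merged into regions, each described by the lists that held a peak there. The 25 peaks fell into 15 regions, among 82365 regions of the genome. One region was held by all 4 lists, where 33.1% of all regions were. Negative alone held none, beside 6.82% of all regions. Sublow alone held 6, beside 2.06% of all regions. Low alone held none, beside 6.41%, and High alone held 2, beside 16.6%. The other 6 regions were held by 2 or 3 lists. Regions of 1 list made up 53.3% of the cluster and 31.9% of all regions.

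**Figure D3:**
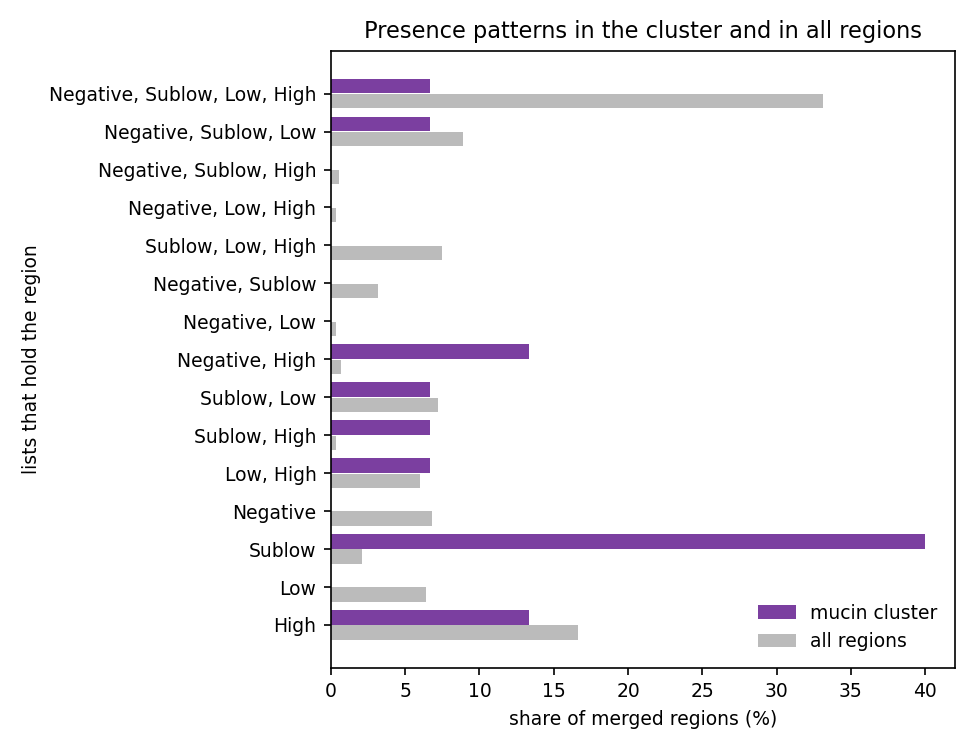
Bars give the share of merged regions (x axis, %) with each combination of lists (y axis), for the 15 regions of the cluster and for all 82365 regions. The cluster has 40.0% of its regions in Sublow alone and 6.67% in all 4 lists, against 2.06% and 33.1% of all regions.

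The single region held by every population, chr7:148956485-148957260, lay 156.9 kb from the left edge and spanned 776 bp. The Negative peak measured 594 bp there, the Sublow peak 776 bp, the Low peak 391 bp and the High peak 258 bp. Their right ends lay within 105 bp of each other, but their starts were spread over 500 bp, so that the peaks differed mainly on the left. Only 171 bp, 22.0% of the region, were covered in all 4 lists.

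The region at 57.4 kb, chr7:148857024-148857806, was held by Negative (133 bp), Sublow (769 bp) and Low (238 bp) and not by High, whose nearest peak was 9.33 kb away. The 3 starts lay within 14 bp and the ends were spread over 636 bp, so the Sublow peak went on to the right where the Negative and Low peaks stopped. The region at 76.0 kb, chr7:148875652-148876401, was held by Low with a 313 bp peak and by Sublow with a 750 bp peak that contained it. High and Negative had no peak within 28.0 kb and 18.5 kb of it. In both regions the Sublow peak was the widest.

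**Figure D4:**
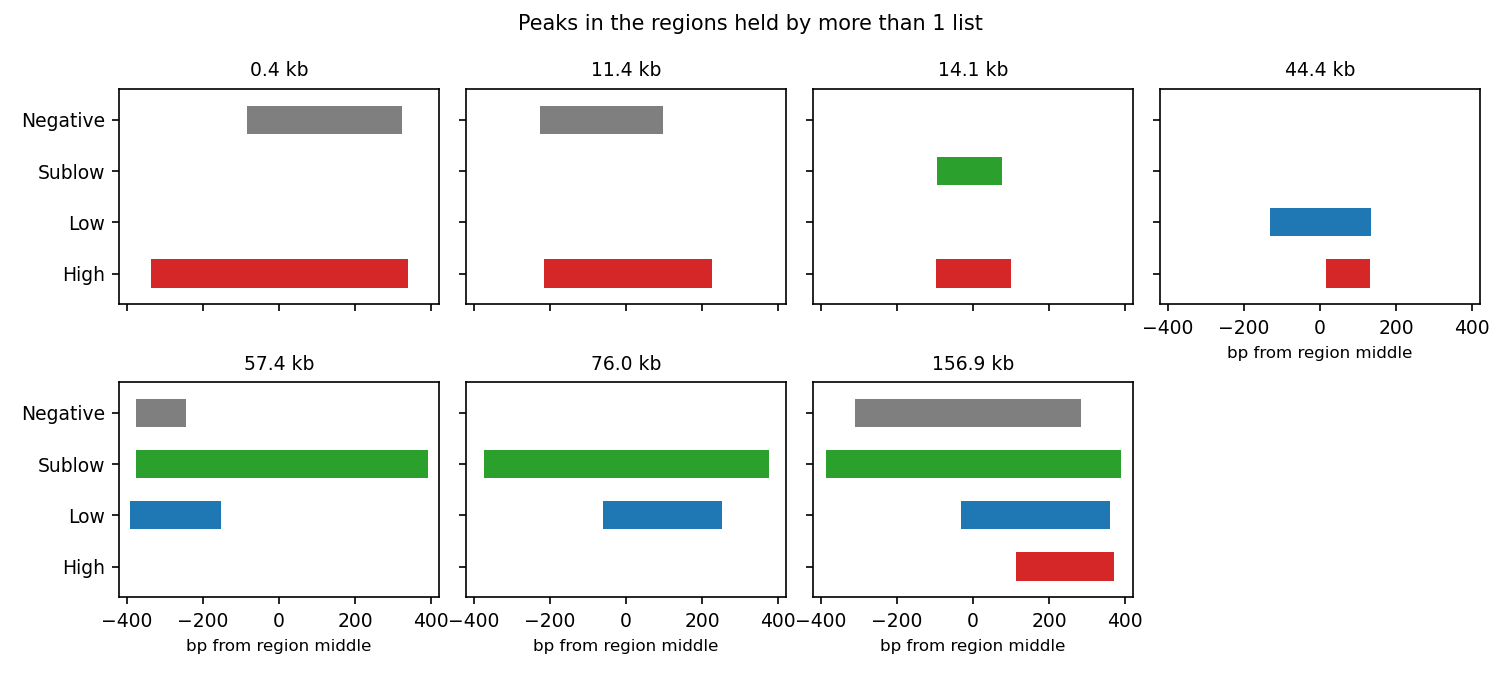
Each panel is 1 of the 7 regions held by more than 1 list, titled by its distance from the left edge of the window, and bars show the extent of each list's peak (x axis, bp from the region's middle). At 57.4, 76.0 and 156.9 kb the Low peak covers only part of the Sublow peak.

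Low peaks were narrower than Sublow peaks wherever both lists held a region. The widths were 238 bp in Low and 769 bp in Sublow at 57.4 kb, 313 and 750 bp at 76.0 kb, and 391 and 776 bp at 156.9 kb. The ratios of Low to Sublow width were 0.309, 0.417 and 0.504. All 3 were past a 1.5-fold difference, which 5.58% of regions with 1 Low and 1 Sublow peak showed in that direction. The median ratio over those regions was 1.00. With 3 regions in 1 stretch of DNA and no value per library, this is a description of the lists.

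Each of the other pairs of lists shared 2 or 3 regions. High was narrower than Low by at least 1.5-fold in both shared regions, with 114 bp in High and 265 bp in Low at 44.4 kb and 258 and 391 bp at 156.9 kb, beside 18.6% of such regions over the genome. Against Sublow, High was narrower past that limit in 1 of 2 (19.9% over the genome), the region of all lists. High was wider than Negative past the limit in 1 of 3 (16.3%), with 677 bp in High and 409 bp in Negative at 0.4 kb, and narrower in 1 of 3 (12.5%), at 156.9 kb. Low was wider than Negative in 1 of 2 (23.2%) and narrower in 1 of 2 (6.01%). Sublow was wider than Negative in 1 of 2 (21.7%), with 769 bp in Sublow and 133 bp in Negative at 57.4 kb.

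The 6 regions that only Sublow held lay in the cluster from 52.3 to 224.8 kb. The widest, chr7:148942360-148943208, measured 849 bp at 142.8 kb and was the widest region that Sublow alone held anywhere in the genome. A second, chr7:148889596-148890348, measured 753 bp at 90.0 kb and was the third by width among the 1696 regions of Sublow alone. Just 1.83% of those regions, 31 in number, reached 500 bp, and 2 of these 31 stood in the cluster. The other 4 measured 156 bp at 52.3 kb, 218 bp at 73.5 kb, 225 bp at 144.3 kb and 171 bp at 224.8 kb, beside a genome-wide median of 184.5 bp for regions of Sublow alone.

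The peaks of other lists nearest to the 2 wide regions of Sublow alone lay 13.3 to 41.9 kb away. Distances from other places were not set beside these. Chromosome 7 as a whole had 1.94 Negative, 2.44 Low and 2.24 High peaks per 100 kb, so they are no sign of isolation. For the 849 bp region the nearest Negative peak was 13.4 kb away, the nearest Low peak 13.6 kb and the nearest High peak 13.8 kb, in each case the peak of the region that all 4 lists held. Around the 753 bp region these distances were 32.4 kb, 13.3 kb and 41.9 kb for the same lists. The lists do not show whether all 3 Sublow libraries carried these peaks, so the part of any 1 library in them was not tested.

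High alone held chr7:148847467-148847696 (230 bp) at 47.6 kb and chr7:149004279-149004622 (344 bp) at 204.5 kb. From the second, the nearest Negative peak was 47.1 kb away, the nearest Sublow peak 20.1 kb and the nearest Low peak 47.0 kb. It was 1 of only 2 peaks in the last 100 kb of the window. The other was the 171 bp Sublow peak at 224.8 kb.

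Of the 6 regions held by 2 or 3 lists, 3 skipped a reporter level. High and Negative shared 2 regions that neither Sublow nor Low held, and High and Sublow shared 1 that Low did not hold. Over the genome, 6.30% of regions of 2 or 3 lists did so. All 3 lay in the first 20 kb of the window, so with 20 kb taken off each end 0 of 3 regions of 2 or 3 lists skipped a level. The first, chr7:148800072-148800748, lay at the left edge, with 677 bp in High and 409 bp in Negative, and the Negative peak lay wholly inside the High peak. The second, chr7:148811219-148811670, had 442 bp in High and 322 bp in Negative, with starts 10 bp apart. The third, chr7:148814010-148814206, had 197 bp in High and 171 bp in Sublow, with starts 2 bp apart. For the first region the nearest peaks of Sublow and Low were 3.62 kb away, and for the second they were 2.34 kb away in Sublow and 14.8 kb in Low. The region at 44.4 kb, chr7:148844298-148844562, was shared by neighbours in reporter level, with 114 bp in High and 265 bp in Low, and both peaks ended within 2 bp.

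Overlap between populations in the cluster ran in another order than over the genome. The Jaccard index over bases (bases covered by both lists over bases covered by either) was 0.315 for High and Negative, 0.202 for Low and Negative, 0.181 for Low and Sublow, 0.131 for Sublow and Negative, 0.117 for High and Low and 0.0643 for High and Sublow. The genome-wide indices of these pairs were 0.441, 0.522, 0.743, 0.612, 0.541 and 0.504. The index of High and Negative, the least alike pair over the genome, rested on the 2 regions nearest the left edge, at 0.4 and 11.4 kb. With 20 kb taken off each end of the window it was 0.114, on 171 shared bases, and Low and Negative ranked first at 0.301. With 20 kb added at each end, Low and Negative ranked first at 0.287, and High and Negative had 0.267. Low and Sublow, the first pair over the genome, had 0.188 and 0.259 in these windows. The cluster values rest on 362 to 928 shared bases per pair and have no error.

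Counted by region, Low and Sublow held 11 regions between them, of which 3 were held by both (74.7% over the genome). Low but not Sublow held 1 (17.2% over the genome), and Sublow but not Low held 7 (8.04%). Of 15 regions of High or Sublow, which are all regions of the cluster, 5 were held by High and not Sublow (27.3%), 8 by Sublow and not High (24.7%) and 2 by both (48.0%). Of 12 regions of Sublow or Negative, 8 were held by Sublow and not Negative (24.0%), 2 by Negative and not Sublow (11.5%) and 2 by both (64.5%). Sublow thus held most of the regions of each of these pairs.

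Regions of the remaining pairs were divided as follows. Of 8 regions of High or Negative, 4 were held by High and not Negative (36.1% over the genome), 1 by Negative and not High (22.8%) and 3 by both (41.1%). Of 9 regions of High or Low, 5 were held by High and not Low (20.6%), 2 by Low and not High (26.0%) and 2 by both (53.4%). Of 6 regions of Low or Negative, 2 were held by Low and not Negative (33.4%), 2 by Negative and not Low (13.8%) and 2 by both (52.8%).

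Along the window, peaks stood in a few groups. In steps of 20 kb, the first step held 6 peaks in 3 regions, the step from 40 to 60 kb held 7 peaks in 4 regions, and the step from 140 to 160 kb held 6 peaks in 3 regions. Of the 13 steps, 6 held no peak. The first 160 kb held 23 peaks and the last 100 kb held 2. The longest stretch without a Negative peak ran 103 kb, from 157.2 kb to the right edge, and so did that without a Low peak. For Sublow it was 67.5 kb, from 157.3 to 224.7 kb, and for High 109 kb, from 47.7 to 157.0 kb. In Negative, Sublow and Low this stretch began at the region of all 4 lists, while in High it ended there.

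The cluster held fewer peaks than the stretches of equal length on either side, but not fewer than chromosome 7 in every list. Its density was 0.794 (Negative), 1.73 (Sublow), 0.631 (Low) and 1.2 (High) times that along the chromosome. Negative had 4 peaks in the cluster, 36 to the left and 13 to the right. Sublow had 10 in the cluster, 33 to the left and 18 to the right. Low had 4 in the cluster, 35 to the left and 19 to the right. High had 7 in the cluster, 28 to the left and 13 to the right. In the cluster 6.67% of regions were held by all 4 lists, against 61.9% of 42 regions to the left and 45.5% of 22 to the right. Over the genome 33.1% of regions were, so both sides stood above that share and the cluster below it. Sublow alone held 6 regions in the cluster, 1 to the left and 0 to the right, and regions that skipped a level numbered 3 in the cluster, 1 to the left and 1 to the right.

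**Figure D5:**
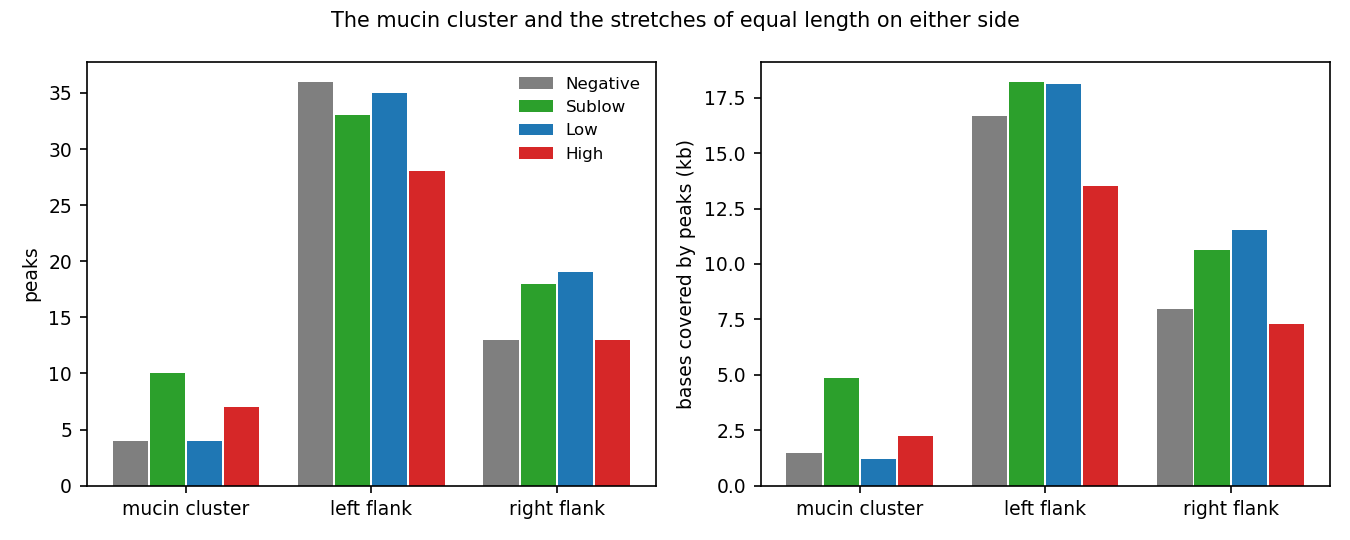
Bars give the number of peaks (left panel) and the kb covered by peaks (right panel) in the mucin cluster and in the stretch of equal length on each side, by population. Low has 4 peaks in the cluster against 35 and 19 beside it, and Sublow has 10 against 33 and 18.

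Moving the window's edges changed its membership. With 20 kb taken off each end, 2 Negative, 9 Sublow, 4 Low and 4 High peaks remained inside, and with 20 kb added at each end there were 5, 12, 6 and 7 in the same order of lists. The High and Negative peaks of the first region began 0.072 and 0.325 kb inside the left edge. Outside on the left, the nearest Negative peak (514 bp wide) ended 3.59 kb away, the Sublow peak (480 bp) 3.55 kb, the Low peak (439 bp) 3.54 kb and the High peak (491 bp) 20.8 kb. On the right, the nearest Negative peak (232 bp) began 26.5 kb away, the Sublow peak (277 bp) 4.7 kb, the Low peak (167 bp) 4.81 kb and the High peak (719 bp) 27.9 kb.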

How the data were processed

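Open chromatin was measured by Omni-ATAC in 12 libraries, 3 for each of 4 sorted populations. Per the submitters' processing notes, the build was mm9 and the tools MACS2 2.1.2, Bowtie2 2.3.4, Trim Galore 0.4.3, deepTools 2.5.2 and Picard 2.10.3. Their roles and settings, the rule of the consensus and any shift for the transposase offset are not given in the sources used here. What the authors deposited is 1 consensus list per population with chromosome, start, end and name, and no score or read count, so depth is unknown and no test was made.

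Some peaks in every list had a start equal to the end (1 to 4 per list), so positions were read as counted from 1 with the end included. Peaks overlapping by 1 bp or touching were merged, and code for this was checked on simulated lists. Densities used the span from the first to the last peak of a chromosome over the lists. A width difference was counted from 1.5-fold, where each list had 1 peak in the region. Every region of the window was counted. Regions of all 4 lists, regions of at least 500 bp and the widest region of each list alone were to be given in full, and the others were added because they were few. The planned gene lists were not used, since no mm9 annotation was at hand. The window, lists and rules were chosen with earlier results of these data known. Python 3.11.15 with scipy 1.17.1 and matplotlib 3.10.9 was used.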

Additional observations from a re-analysis of the deposited data

How the results depend on the processing

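No paired analysis was possible because the lists pool the libraries, which also means that leaving out a replicate was not possible. Of 87 values recomputed, 65 stayed within 1.5 times (counts), the exact 95% binomial interval (bases and indices) or the range of the ratios (widths), and 22 did not. That interval takes each base as independent, though bases come in whole peaks, so it is too narrow and is no error of these values. The limits are unlike, so these 2 numbers are no measure of how stable the results are. With the window shortened by 20 kb at each end, High had 4 peaks and Negative 2. Regions and overlap in moved windows were added after seeing the data. In the shortened window 3 regions were held by 2 or 3 lists and 0 of them skipped a level. Jaccard indices in the shortened and the lengthened window were 0.114 and 0.267 for High and Negative, 0.0482 and 0.0578 for High and Sublow, 0.202 and 0.0975 for High and Low, 0.301 and 0.287 for Low and Negative, 0.188 and 0.259 for Low and Sublow, and 0.156 and 0.183 for Sublow and Negative. Without peaks under 200 bp, bases covered were 1325 in Negative, 4340 in Sublow and 1951 in High. In that setting 4 regions of Low or Sublow were held by Sublow and not Low, beside 8.3% of such regions over the genome. With the widest peaks of each list, as many as the shortest list holds (45461), bases covered were 4340 in Sublow, 969 in Low and 2148 in High. Fewer peaks enter these settings by construction. Regions of Sublow alone numbered from 4 to 8 over the 4 alternatives of merging and width, where 1.82% to 4.20% of all regions were of that kind, and 6 in both moved windows. The count of 8, with reciprocal overlap, includes the Sublow peaks at 57.4 and 76.0 kb. Both overlap Low peaks and were split from them by that rule. Regions that skip a level numbered 2 to 4 over those 4 alternatives, 0 in the shortened and 3 in the lengthened window. They were 4 of 4 regions of 2 or 3 lists with reciprocal overlap and 3 of 6 with peaks up to 500 bp apart merged. Without peaks under 200 bp and with the widest peaks they were 2 of 4. With reciprocal overlap, the Negative and Low peaks at 57.4 kb counted as skipping Sublow only by that rule. The 769 bp Sublow peak there overlaps both and was split off for its width. Over the genome 4.86% to 10.3% of regions of 2 or 3 lists skipped a level in these 4 alternatives. In all of these settings 1 region was held by all 4 lists. With a reciprocal overlap of 50%, peaks were joined in chains, so 2 peaks of a region may overlap by less. Sensitivity of the lists was not tested.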

Other observations

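Close pairs and rows of regions of Sublow alone were counted over the genome after the values of the cluster had been seen, as a description. The 753 bp and 849 bp regions of the mucin cluster stood 52.0 kb apart. Among the 31 regions of Sublow alone that reached 500 bp, 6 of them on chromosome 7, they were the only pair within 260 kb of each other. These 2 regions and the 225 bp region beside them also followed one another with no region of another list in between. A row of 3 such neighbours occurred at 2 places in the genome, here and on chromosome 10 from 42634567 to 42675120, and no row was longer. The genes at the place on chromosome 10 were not analysed here.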
